A study of Danio rerio with 13 samples.

Results

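Divergent promoter pairs are places where a gene read leftward and a gene read rightward start close together and face away from each other, so that 1 promoter window serves both. They were taken here as windows of different genes on the same chromosome and opposite strands whose starts lay at most 1000 bases apart, with the minus-strand window starting at or before the plus-strand window. Of 42015 promoter windows outside the mitochondrial genome, 2753 (6.55%) met this rule. They formed 2088 window pairs and 912 gene pairs, and they carried 1805 of 24416 genes (7.39%). The rule used positions and strands alone, and no value of either mark.

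The windows were profiled by chromatin immunoprecipitation and sequencing (ChIP-seq) in hearts of zebrafish, an animal that regrows heart muscle after injury. Uninjured hearts were compared with hearts 5 days after the tip of the ventricle had been cut off. All fish were of the TuAB strain and 1 to 1.5 years old, and the apical part of their ventricles was dissociated and passed over a mesh of 10 micrometres, on which cardiomyocytes stayed behind. Each of 2 marks, trimethylation of histone H3 at lysine 4 (H3K4me3) and at lysine 27 (H3K27me3), had 3 libraries per condition, called biological replicates in the design text, and the single mixed input DNA sample that completes the 13 samples was not used. The number of hearts behind a library could not be read from the labels. The windows are 4000 bases wide. The values are the authors' own comparison of the 3 resected with the 3 uninjured libraries, which gives a mean over both conditions, a log2 fold change and its standard error (SE) per window, so no level in a single library can be shown.

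A divergent promoter usually holds a single nucleosome-poor stretch from which transcription starts in both directions. In vertebrates such promoters are often rich in CpG, and they are known for housekeeping genes and for genes of DNA repair, the cell cycle and mitochondria. H3K4me3 is placed by Set1 and MLL complexes on nucleosomes beside active starts, on both sides of such a stretch. H3K27me3 is placed by the Polycomb complex PRC2 and lies over silenced genes, among them developmental regulators that are off in a tissue.

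Partners shared most of their window. The starts of the 912 gene pairs differed by a median of 316 bases, with quartiles of 113 and 627 and a greatest difference of 995. Windows of 4000 bases that start 316 bases apart have all the other bases in common, and so share their reads. A value at 1 partner is therefore not independent of the value at the other, and neither mark can be assigned to 1 gene of a pair. Of the 1805 genes, 1786 were in 1 pair and 19 in 2. In 596 pairs both genes had a gene symbol, in 257 pairs 1 gene had only a clone name and in 59 pairs both did. The limit of 1000 bases cut through a continuous range. The 46 gene pairs with starts 901 to 1000 bases apart had a median H3K4me3 mean of 258 and a median H3K27me3 mean of 44.3, and the 49 pairs just outside it, at 1001 to 1100 bases, had 245 and 41.7.

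Divergent windows carried much H3K4me3 and little H3K27me3. The median window of the divergent pairs had a mean normalised count of 300.8 for H3K4me3, with quartiles of 192.5 and 405.7. The 32311 windows that no other gene's window overlapped, called unshared from here on, had a median of 57.5, with quartiles of 38.4 and 212.4. The 6951 windows overlapped by another gene in some other arrangement lay between them, with a median of 152. Few divergent windows were poor in the mark: 2444 of 2753 (88.8%) had a mean of at least 100, against 40.8% of unshared windows. Among windows of at least 100 alone, the medians were 326 in divergent pairs and 246 in unshared windows, so that much of the distance came from the share of windows with the mark. A divergent window covers starts of both partners, and an unshared window covers starts of its own gene only. The counts are therefore levels per window and not per promoter. Whether a promoter in a pair carried more H3K4me3 than an unshared promoter was not tested.

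H3K27me3 went the other way. Its median was 42.4 in divergent windows, with quartiles of 35.4 and 51.2, and 58.5 in unshared windows, with quartiles of 46.3 and 72.1. The windows overlapped in some other arrangement had a median of 50.5. A mean of at least 100 was reached by 68 divergent windows (2.47%), against 5.61% of unshared windows. At matched H3K4me3 the distance was smaller: in windows with 200 to 400 of H3K4me3 the median H3K27me3 was 41.5 in divergent pairs and 47.0 in unshared windows. Windows overlapped in some other arrangement were close to the divergent ones at that level, with 42.9. Under 50 of H3K4me3 the order was the reverse, with 73.1 in divergent, 66.8 in otherwise overlapped and 65.8 in unshared windows. These levels are described without a test, because windows are not replicates.

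**Figure D1:**
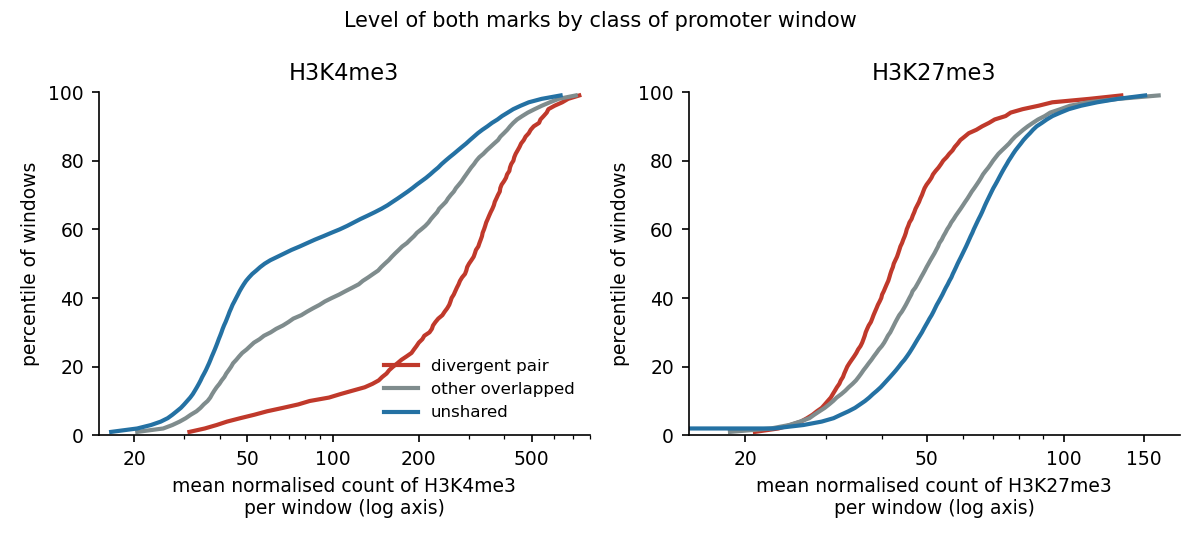
Percentiles of the authors' mean normalised count per window (log axes) for H3K4me3 and H3K27me3 in 2753 divergent, 6951 otherwise overlapped and 32311 unshared windows. For H3K4me3 the divergent windows lie to the right (median 300.8 against 57.5 in unshared windows), and for H3K27me3 to the left (42.4 against 58.5). Divergent windows cover starts of both partners, so these are levels per window and not per promoter.

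The pair with the most H3K4me3 joined ppp1r10, which encodes a regulatory subunit of protein phosphatase 1, and mrps18b, a protein of the mitochondrial ribosome, on chromosome 19. The authors' deposited table gives means of 1171.5 and 1010.5 for these windows. Next came phf23a, a PHD finger gene, with atp6v1aa, a subunit of the proton pump of lysosomes, at 1089 and 1091 in the authors' deposited table. The pair of h3f3b.1, a gene of the replication-independent histone H3.3, and unkl followed with 1048 and 1082 in the authors' deposited table. For cdk19, a kinase of the Mediator complex, and amd1, an enzyme of polyamine synthesis, the authors' deposited table lists 1026 and 1039. The last of the 5 was bcl6a, a transcriptional repressor gene, with a clone-named partner, at 983 and 1021 in the authors' deposited table. None of these 5 pairs was called for a change of H3K4me3, and their log2 fold changes in the authors' deposited table ran from -0.16 to 0.24.

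The pairs with the most H3K27me3 lay mainly in repeated DNA. Of the 5 highest, 4 joined a 5.8S ribosomal RNA gene to a clone-named gene in 1 stretch of chromosome 4, with means of 162 to 178 in the authors' deposited table. Ribosomal RNA genes are near-identical copies, so these counts depend on how the authors placed reads with several matches and are uncertain. Among pairs with a symbol on both sides, btf3, a subunit of the nascent polypeptide-associated complex, and foxd1, a forkhead transcription factor gene of embryonic tissues, had H3K27me3 means of 133.9 and 134.2 and H3K4me3 means of 53.7 and 52.3 in the authors' deposited table. The globin genes hbba1 and hbaa1 had 129 and 122 of H3K27me3 in the authors' deposited table. The pair of ewsr1b, an RNA-binding protein gene, and rhbdd3, a rhomboid-like gene, had 120 and 118 in the authors' deposited table. Last came ptgr1, a prostaglandin reductase gene whose window pairs with those of both haus3, a subunit of the augmin complex of the spindle, and poln, a DNA polymerase gene. The authors' deposited table lists H3K27me3 means of 113.9, 112.5 and 108.2 for these 3 genes.

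Both marks were seldom high at the same pair. H3K4me3 was at least 100 at both windows of 787 of the 912 gene pairs, and H3K27me3 at both windows of 23. For 7 pairs both marks reached 100 at both windows, among them the globin pair, ewsr1b with rhbdd3, ptgr1 with haus3, and ptgr1 with poln. The T-box factor gene tbx2b with its clone-named partner was another of the 7, named after its values were seen. Whether both marks lay in the same cells was not tested.

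After resection, H3K4me3 rose at both windows of 9 gene pairs and fell at both windows of 1. In 2 further pairs 1 of the 2 windows was called, and in no pair were partners called in opposite directions. With the p-values adjusted over every window, 6 pairs had both windows called, and no divergent window was called lower. A call is an adjusted p under 0.05 in the authors' table, which has the columns of DESeq2. Of the 2753 divergent windows, 2597 had an adjusted p (94.3%, against 53.2% of unshared windows), and 29 of these (1.12%) were higher and 3 (0.116%) lower. Over all 24891 windows with an adjusted p, 1.44% were higher and 1.51% lower, and over the 17182 unshared ones 1.51% were higher and 2.00% lower. By gene, 19 of 1699 divergent genes (1.12%) were higher and 3 (0.177%) lower, against 1.72% and 2.00% of 10294 genes with unshared windows alone. The share of higher calls was thus near the background and the share of lower calls below it, which was not tested, since the called windows stand for 12 gene pairs only.

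The strongest gains were at pairs that hold a regulator of cell division. On chromosome 4, the window of foxm1 (chr4:5820953-5824952, on a build that the sources used here do not state, as for all positions given) shares 3211 bases with that of si:ch73-352p4.5. FoxM1 is a forkhead transcription factor that drives genes of G2 and mitosis. In the authors' deposited table these windows had H3K4me3 means of 157 and 164 and log2 fold changes of 1.29 (SE 0.26, adjusted p = 0.000215) and 1.37 (SE 0.25, adjusted p = 5.35e-05), which are 2.44-fold and 2.58-fold.

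On chromosome 11, mybl2b (chr11:1523019-1527018) is paired with si:ch73-303b9.1. It encodes B-Myb, which acts with the MuvB complex on the same phase of the cycle. The authors' deposited table lists means of 113 and 114 and log2 fold changes of 1.36 (SE 0.27, adjusted p = 0.000188) at mybl2b and 1.33 (SE 0.28, adjusted p = 0.000382) at its partner. The windows of ccne1 (chr7:45745415-45749414), the gene of cyclin E1, which drives entry into S phase, and of zgc:162297 start only 24 bases apart. Their values were almost the same, with means of 153 and log2 fold changes of 1.11 (SE 0.25) at both in the authors' deposited table and adjusted p of 0.00105 and 0.00097.

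In 1 pair both partners are known for roles in mitosis. nusap1 (chr13:33124218-33128217) encodes a protein that bundles spindle microtubules, and oip5 (chr13:33124398-33128397) a subunit of the Mis18 complex, which in mammals helps to load the centromere histone. On means of 113 and 115, they rose by 1.12 (SE 0.27, adjusted p = 0.00273) on the log2 scale and 2.14-fold (log2 SE 0.27, adjusted p = 0.00397) according to the authors' deposited table. At other called pairs a mitotic gene stands beside a gene with another job or with a clone name only. tacc3 (chr13:35764412-35768411), which stabilises spindle fibres, is paired with mfsd2aa, a transporter of lysophospholipids. Their log2 fold changes were 0.89 (adjusted p = 0.0172) and 0.87 (adjusted p = 0.0225), with SEs of 0.25, in the authors' deposited table. ccnb3 (chr7:22708753-22712752), the gene of cyclin B3, is paired with si:dkey-171c9.3. Their log2 fold changes were 0.89 (adjusted p = 0.0283) and 0.84 (adjusted p = 0.0424), with SEs of 0.26, in the authors' deposited table. Because the window is common, the table cannot say whether the mark rose on the side of the mitotic gene or on that of its neighbour.

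The other gains were in blood genes and in pairs with no such member. The globin pair hbba1 (chr3:54842671-54846670) and hbaa1 (chr3:54843444-54847443), genes of the beta and alpha chains of haemoglobin, rose by 0.88 (SE 0.24, adjusted p = 0.0143) and 0.91 (SE 0.24, adjusted p = 0.0107) on the log2 scale, as listed in the authors' deposited table. A second gene that carries the symbol hbba1, in the next pair of the same cluster (chr3:54847709-54851708), had 0.73 (SE 0.26, adjusted p = 0.114) and was not called, and its partner si:ch211-5k11.8 rose by 0.87 (SE 0.26, adjusted p = 0.0369), as listed in the authors' deposited table. Globin genes are near-identical copies, so reads could be split among them and these values are uncertain. Of the 4 erythroid marker genes found, 3 are these globin genes themselves. The fourth, gata1a, a transcription factor gene of red cell precursors, had 0.47 and was not called (adjusted p = 0.481 in the authors' deposited table). Cells that passed the mesh were discarded, and the part of any red cells left on it in these values was not tested.

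erlec1 (chr13:35637197-35641196), a lectin of glycoprotein quality control in the endoplasmic reticulum, and agpat4, an acyltransferase of phospholipid synthesis, rose by 0.81 (SE 0.24, adjusted p = 0.0307) and 0.80 (SE 0.24, adjusted p = 0.0386), as listed in the authors' deposited table. The last gain was at si:ch211-269k10.4 and si:ch211-269k10.5 on chromosome 16, which have clone names only. The authors' deposited table lists 0.95 (SE 0.29, adjusted p = 0.0424) and 0.96 (SE 0.29, adjusted p = 0.037) there, on means of 54.4 and 54.7, the lowest of the called pairs. Neither this pair nor erlec1 and agpat4 kept a call with adjustment over every window, where the adjusted p ran from 0.0519 to 0.0708. Of the pairs above, ccnb3 kept its call and si:dkey-171c9.3 did not (adjusted p of 0.0476 and 0.0708), and si:ch211-5k11.8 did not (0.062).

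Loss of H3K4me3 was rare. dhrs1 (chr2:38277421-38281420), a short-chain dehydrogenase gene, and si:ch211-14a17.10 fell by 0.80 (adjusted p = 0.0443) and 0.79 (adjusted p = 0.0453) on the log2 scale, with SEs of 0.25, in the authors' deposited table. The small heat shock genes hspb2 and cryabb, the latter of alpha-B-crystallin, are chaperones of heart and skeletal muscle that form a divergent pair in mammals too. In the authors' deposited table cryabb (chr5:56969338-56973337) fell by 0.96 (SE 0.29, adjusted p = 0.04), while hspb2 had -0.84 (SE 0.29, adjusted p = 0.0977). The difference between these partners was not tested, so hspb2 is not shown to differ from cryabb. It is below either SE, but the SE of 1 window is not the error of a difference between windows that share reads. With adjustment over every window, dhrs1 (adjusted p = 0.0739), its partner (0.0754) and cryabb (0.0669) lost their calls. In the same libraries cardiomyocyte markers were lower at 7 of 10 genes and endocardial and endothelial markers at 2 of 5, and leukocyte markers were higher at 4 of 7 genes and epicardial markers at 2 of 4. Over all genes with an adjusted p, 1.61% were higher and 1.54% lower. The part of cell composition in these calls was not tested. In tissue like this, fewer cells of a type and less mark per cell cannot be told apart.

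**Figure D2:**
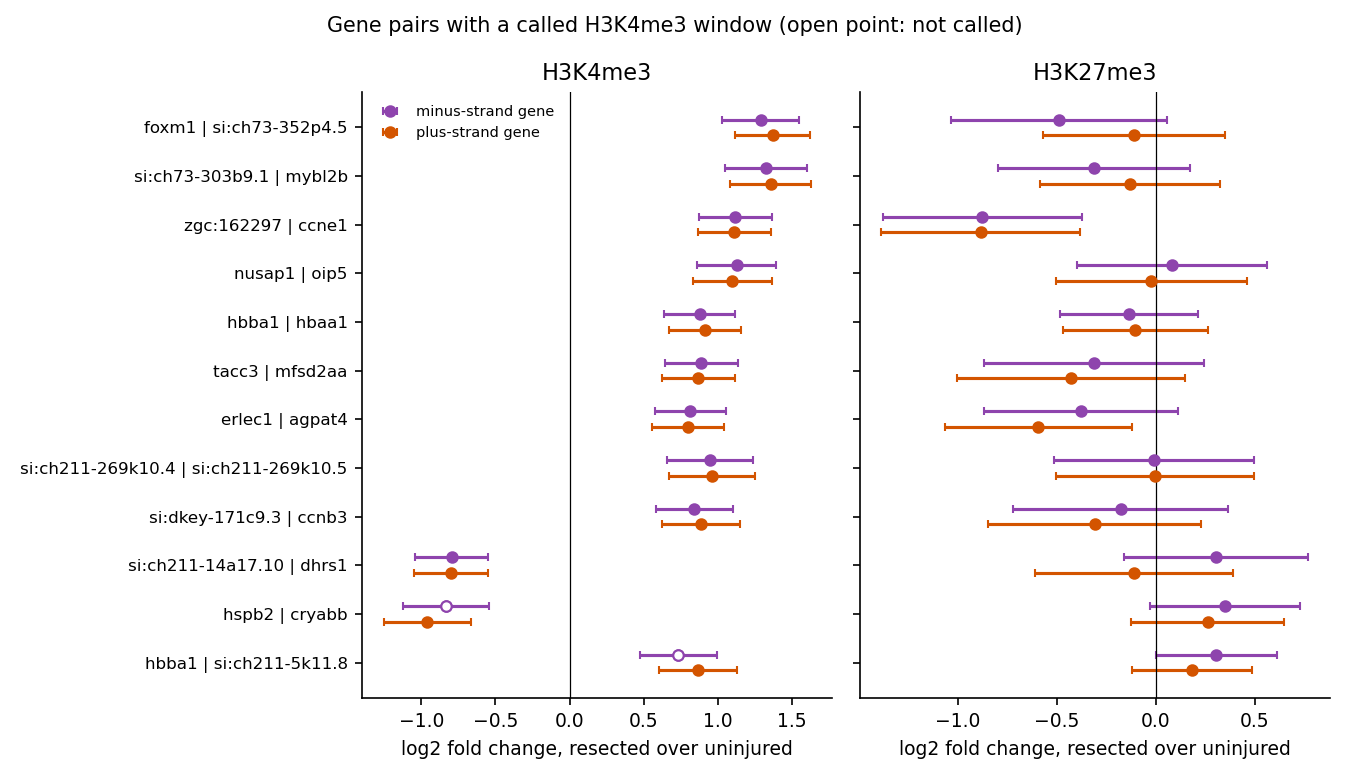
Log2 fold changes of resected over uninjured hearts with their SE (bars), from the authors' deposited table, at the 12 gene pairs with a called H3K4me3 window. Filled H3K4me3 points passed an adjusted p under 0.05 and open ones did not. The SE bars of partners overlap at every pair, but partners share reads, so the bars do not measure the error of their difference. H3K4me3 rose by 0.80 to 1.37 at both windows of 9 pairs, and no H3K27me3 point was called.

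No H3K27me3 change was called at the pairs with an H3K4me3 call, which does not show that the mark was unchanged there. Of the 9 pairs that rose, 8 had an H3K27me3 log2 fold change below 0 at both windows, and the exception, nusap1 with oip5, had 0.08 and -0.02 in the authors' deposited table. The lowest was at ccne1 and zgc:162297, with -0.88 at both windows, SEs of 0.50 and unadjusted p of 0.0789 and 0.0821 in the authors' deposited table. A value below 0 for H3K27me3 was common in divergent pairs in general: 558 of 909 pairs had it at both windows. Across the gene pairs with changes of both marks, these had a Spearman correlation of -0.08. Across genes with at least 1 unshared window (19346 in all), taken at the window highest in H3K4me3, it was -0.09. These describe windows that share their libraries and their input of cells.

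Over the divergent windows as a whole, small shifts in opposite directions were seen. The median log2 fold change of H3K4me3 was 0.10, against -0.01 in unshared windows and 0.03 in the otherwise overlapped ones, and 1858 divergent windows (67.5%) were above 0, against 49.1% of unshared ones. For H3K27me3 the median was -0.20, against 0.02 in unshared and -0.08 in otherwise overlapped windows, and 1872 divergent windows (68.1%) were below 0, against 48.3%. Each shift is smaller than the error of 1 window: the median SE in divergent windows was 0.23 for H3K4me3 and 0.49 for H3K27me3. That SE does not measure the error of a median over many windows. With no values per library the shifts could not be tested over samples.

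The shifts varied with the H3K4me3 level of the window. For H3K27me3 the medians of all classes fell with the level of H3K4me3. From under 50 to at least 400 of H3K4me3, the median log2 fold change of unshared windows went from 0.10 to -0.27. That of otherwise overlapped windows went from 0.10 to -0.35, and that of divergent windows from 0.13 to -0.31. At 200 to 400, the bin with 1296 of the 2753 divergent windows, the medians were -0.13 in unshared and -0.23 in divergent windows. Otherwise overlapped windows had -0.19 in that bin. For H3K4me3, divergent windows had medians of 0.12, 0.11 and 0.09 at 100 to 200, 200 to 400 and at least 400, where unshared windows had 0.01, 0.02 and 0.02. Otherwise overlapped windows had 0.05, 0.04 and 0.05 in these bins. Below 100 this order was not seen. Under 50 the medians were -0.04 in divergent, -0.05 in otherwise overlapped and -0.04 in unshared windows. At 50 to 100 they were 0.07, 0.08 and 0.04. The called windows were concentrated at moderate levels. At 100 to 200 of H3K4me3, 24 of 433 divergent windows were higher and none lower, and of 4590 unshared windows 122 were higher and 173 lower. Of 1343 otherwise overlapped windows 35 were higher and 12 lower. Partner windows and alternative starts share reads, and all 29 higher divergent windows stand for only 19 genes. These window counts are therefore not counts of independent promoters, and the classes were not tested against each other.

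**Figure D3:**
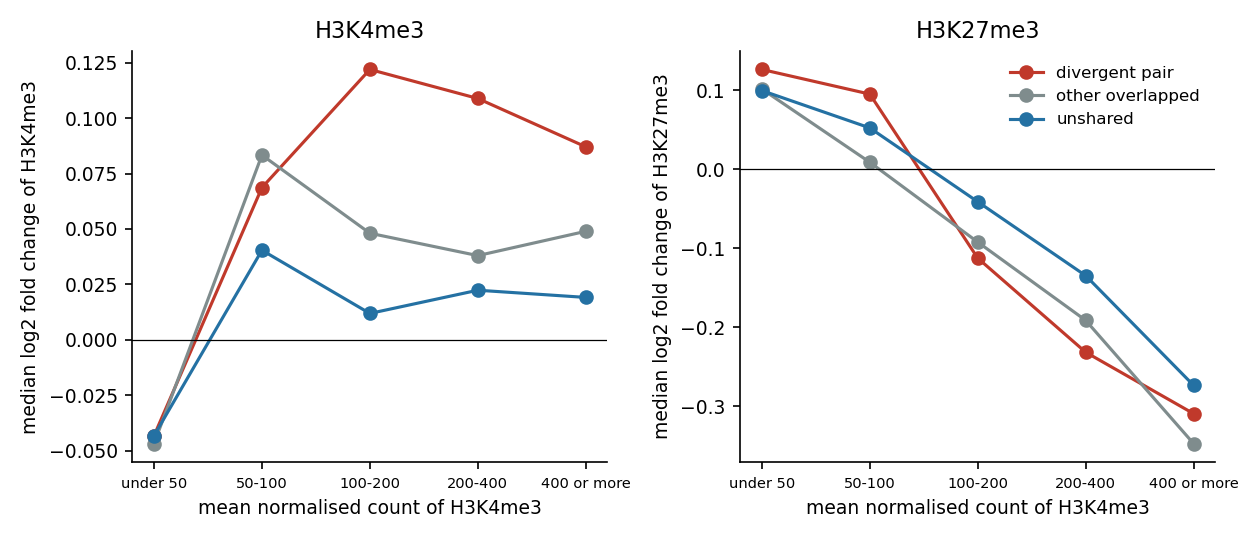
Median log2 fold change of each mark, resected over uninjured, in bins of mean H3K4me3 (normalised counts) for divergent, otherwise overlapped and unshared windows, without error bars. For H3K27me3 all classes descend, to -0.31 in divergent, -0.35 in otherwise overlapped and -0.27 in unshared windows at 400 or more. At 200 to 400 they stand at -0.23, -0.19 and -0.13. For H3K4me3 the divergent windows stay near 0.1 from 100 upward and the unshared ones near 0.02, with the otherwise overlapped ones between them.

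No divergent window was called for H3K27me3 in the authors' DESeq2 table, and the smallest adjusted p was 0.9999. At an unadjusted p under 0.05, 19 of 2747 divergent windows with a p (0.692%) were higher and 102 (3.71%) lower, against 0.996% and 2.10% of all 41651 windows. The otherwise overlapped windows were near the divergent ones, with 0.678% higher and 3.32% lower, and unshared windows had 1.09% and 1.69%. An excess of lower windows was thus not particular to divergent pairs, and the classes were not tested against each other. In 24 gene pairs both windows were lower by that measure and in 4 both were higher. The names that follow are the 5 pairs per direction with the smallest p, and none passed adjustment.

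On the lower side, ppp1r10 and mrps18b, the pair richest in H3K4me3, had H3K27me3 log2 fold changes of -2.42 (SE 0.77) and -2.11 (SE 0.68) on means of 26.7 and 29.4 in the authors' deposited table. Both means lie below the lower quartile of divergent windows (35.4). hif1al2, which belongs to the family of the asparagine hydroxylase of hypoxia-inducible factor, and dpp3, a dipeptidyl peptidase gene, had -1.52 (SE 0.46) and -1.26 (SE 0.47) in the authors' deposited table. ptbp3, a splicing regulator gene, and hsdl2, a dehydrogenase-like gene, start 11 bases apart, and the authors' deposited table gives both the same value, -1.75 (SE 0.59). cldng, a claudin of tight junctions, and znf654, a zinc finger gene, had -1.41 at both in the authors' deposited table. rnaseka and its clone-named partner had -1.79 and -1.83 there. The H3K4me3 means of hif1al2 and dpp3 were 234 and 163 in the authors' deposited table, and those of the other 4 pairs ran from 459.6 to 1171.5.

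On the higher side, dffa, an inhibitor of the caspase-activated nuclease, and pex14, a peroxisomal import gene, had 1.21 (SE 0.50) and 1.43 (SE 0.51) in the authors' deposited table. mcmbp, a binding protein of the MCM helicase, and sec23ip, a gene of vesicle transport, had 1.38 (SE 0.56) and 1.26 (SE 0.55) there. Their H3K27me3 means of 25.2 and 26.0 also lie below the lower quartile of divergent windows. The zinc finger gene znf1141 had 0.90 (SE 0.35) and its clone-named partner 0.77 (SE 0.37) in the authors' deposited table, and the other 2 pairs held no gene with a symbol. The H3K27me3 means of these 5 pairs ran from 25.2 to 103 in the authors' deposited table.

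Partners matched each other closely, and more so the closer they started. The median difference between partners in the log2 fold change of H3K4me3 was 0.0022 for starts up to 100 bases apart (209 pairs), 0.0074 at 101 to 250 (183 pairs), 0.014 at 251 to 500 (200 pairs) and 0.021 at 501 to 1000 bases (320 pairs). In 18 pairs, all within 100 bases, the H3K4me3 means were identical. A yardstick is given by 2 windows of 1 unshared gene, which are alternative starts on the same strand at the same spacing. Their median differences for H3K4me3 were 0.0023, 0.012, 0.023 and 0.042, which is at or above the difference between divergent partners at each spacing. For H3K27me3 the order was the reverse, with 0.17 between partners at 501 to 1000 bases and 0.14 between starts of 1 gene. Neither comparison was tested, and the shared bases and the counts of the windows enter both.

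The direction was shared too. H3K4me3 had the same sign at both partners in 886 of 912 pairs, above 0 in 592 and below 0 in 294. Across pairs, the log2 fold changes of partners had a Spearman correlation of 0.99 for H3K4me3 and 0.88 for H3K27me3, which describes windows with common reads.

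**Figure D4:**
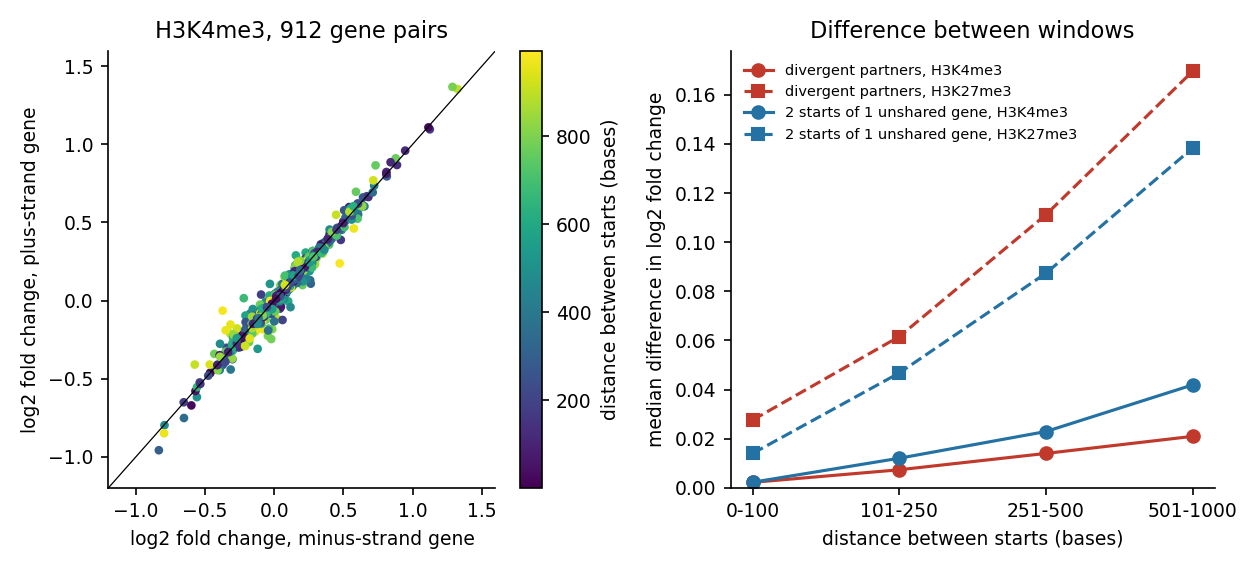
Left, H3K4me3 log2 fold change of the plus-strand gene against that of the minus-strand gene at 912 gene pairs, coloured by the distance between starts in bases, with the line of equality. Right, median difference in log2 fold change between divergent partners and between 2 starts of 1 unshared gene, by distance, without error bars. At 501 to 1000 bases it is 0.021 and 0.042 for H3K4me3 and 0.17 and 0.14 for H3K27me3.

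A few partners did differ. The widest gap in level was between si:ch211-214j24.15 and si:ch211-214j24.10 on chromosome 4, whose H3K4me3 means of 103 and 340.3 in the authors' deposited table stand 3.30-fold apart over 477 bases. At lamp2, a lysosomal membrane protein gene, the mean was 43.9 and at its clone-named partner 69.0 in the authors' deposited table, a ratio of 1.57. hif1al2 had 234 and dpp3 163 in the authors' deposited table, a ratio of 1.44. The mean at socs7, a suppressor of cytokine signalling, was 198, and at its partner si:ch211-156l18.8 it was 142, a ratio of 1.39 from the authors' deposited table. The fifth, pimr213 with a clone-named partner, had means of only 28.3 and 21.9 in the authors' deposited table.

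In change, socs7 and its partner were farthest apart among pairs with an adjusted p at both windows, with log2 fold changes of 0.47 (SE 0.24) and 0.24 (SE 0.25) in the authors' deposited table. hif1al2 and dpp3 followed with -0.02 (SE 0.24) and -0.25 (SE 0.25) there. For btr29 and osxm the authors' deposited table lists -0.12 and -0.31, for sinup and ccdc146 0.06 and -0.12, and for PIGG, a gene of GPI anchor synthesis, and lrp2bp -0.01 and -0.18. All of these gaps are within the SE of a single window, and none of the genes was called. That SE is not the error of a difference between windows that share reads, so it cannot say whether these partners differ. Over all 912 gene pairs the 90th percentile of the gap was 0.056.

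Of 28 head-to-head pairs listed from textbook examples, mostly mammalian, 5 met the rule. paics and ppat, which encode enzymes of purine synthesis, start 10 bases apart and had H3K4me3 log2 fold changes of -0.46 and -0.47 (SE 0.25, adjusted p of 0.489 and 0.484) in the authors' deposited table. afmid, a formamidase gene of tryptophan breakdown, and tk1, the thymidine kinase of S phase, had 0.55 and 0.56 (SE 0.28, adjusted p of 0.429 and 0.421) there. hspd1 and hspe1, the mitochondrial chaperonin and its lid, had H3K4me3 means of 456 and 457 and log2 fold changes of -0.05 and -0.04 in the authors' deposited table. Their H3K27me3 changes were -1.83 (SE 0.72) and -1.33 (SE 0.64) in the authors' deposited table, with unadjusted p of 0.0117 and 0.0373. The H3K27me3 means there were only 25.1 and 26.7, below the lower quartile of divergent windows (35.4), and neither change was called. For col4a6 and col4a5, basement membrane collagens, the authors' deposited table gives H3K4me3 means of 55.1 and 55.6 and H3K27me3 means of 86.0 and 91.5, with no call. The H3K4me3 means of paics and ppat were 159.4 and 159.5 there, and those of afmid and tk1 97.0 and 96.9. The H3K27me3 means of these 4 genes ran from 43.3 to 43.4 in the authors' deposited table. The globin pair was the fifth.

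Lists of basic cell functions had a larger share of their genes in divergent pairs than the list of sarcomere and calcium handling genes. The share of all genes in pairs was 7.39%. It was 26.0% for the list named mitochondrial ribosome and respiratory chain (56 of 215 genes). That list also holds genes of mitochondrial protein import, among them tomm5 and timm50. The share was 21.1% for DNA replication and repair (19 of 90), 17.9% for the cell cycle and mitosis (12 of 67) and 17.2% for ribosomal proteins (15 of 87). It was 12.3% for the proteasome and chaperones (18 of 146). Histone genes were at 7.84% (4 of 51). The erythroid and globin list, which is no list of basic functions, was at 20% (3 of 15), all of them the globin genes named above. Collagens and matrix genes were at 2.47% (2 of 81). Of 45 sarcomere and calcium handling genes none was in a pair, nor was any of 25 leukocyte markers. Of 199 Hox and other developmental transcription factors 4 were (2.01%), namely otx1b, foxd1, tbx2b and foxm1, and of 24 cardiac transcription factors tbx2b alone. These shares are counts over annotated positions, hold no measurement, and were not tested.

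**Figure D5:**
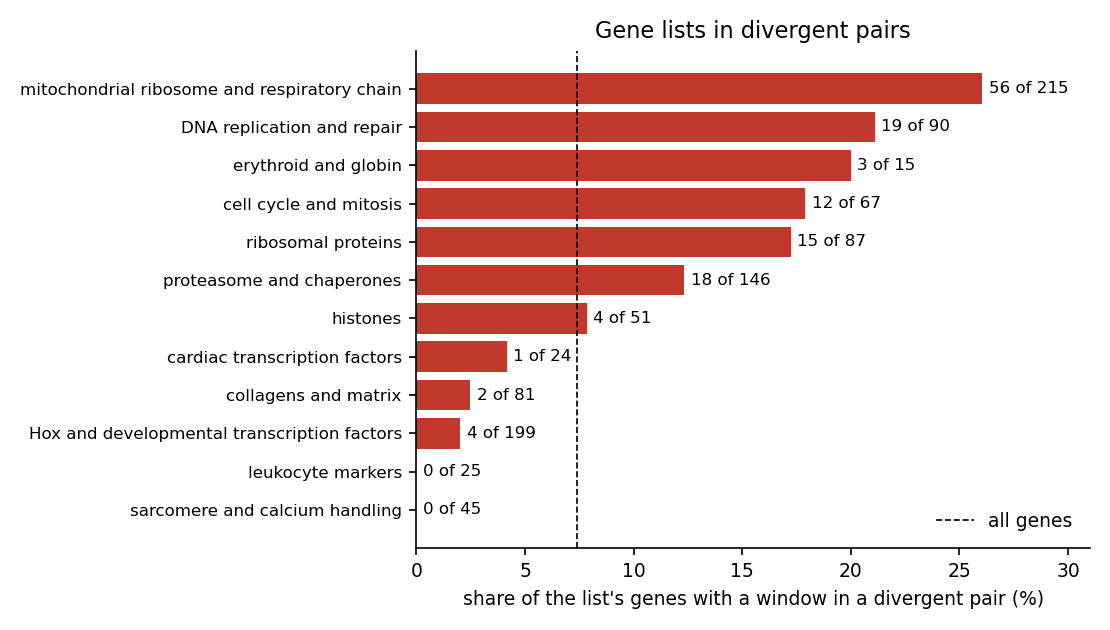
Share of each gene list, in percent, that has a window in a divergent pair, with the number of genes at each bar and the share of all genes (7.39%) as a dashed line. Mitochondrial, DNA replication and cell cycle lists are at 17.9% to 26.0%, and sarcomere genes and leukocyte markers at 0 of 45 and 0 of 25. The erythroid and globin list is at 20% (3 of 15).

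Within the pairs, the cell cycle list held the most called genes. The erythroid and globin list had 2 of 3 higher, the globin pair above, and foxm1 also counts in the list of developmental factors. Of the 12 divergent members of the cell cycle list 5 rose, beside 1.12% of all divergent genes with an adjusted p, and none fell. All 12 had a log2 fold change above 0, with a median of 0.53, against 0.09 over all 1805 divergent genes. The 5 were foxm1, mybl2b, ccne1, nusap1 and tacc3, each described above. The other 7 ran from 0.04 at cdk2, a kinase partner of cyclin E, to 0.56 at kif4, a chromosome motor, in the authors' deposited table, and both were named after their values were seen. Of the 55 list members outside pairs 18 were higher and none lower, with a median of 0.64. The called genes oip5 and ccnb3 are not on the list. Cell cycle genes are already known to gain the mark in this comparison, so the count is no independent evidence of its direction.

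The remaining lists held few calls. None of the 19 divergent genes of DNA replication and repair was called, with a median of 0.17, and 5 of the 71 others were higher. The 15 ribosomal protein genes in pairs had a median H3K4me3 mean of 400.1 and no call. Their median H3K27me3 log2 fold change was -0.53, against -0.18 over all divergent genes. It was -0.31 in divergent windows with at least 400 of H3K4me3, and -0.14 at the 72 ribosomal protein genes outside pairs. These medians were not tested. The 56 mitochondrial genes had a median mean of 368, a median H3K4me3 change of 0.07 and no call, and the 18 proteasome and chaperone genes a median mean of 373, 0.09 and no call. The chaperone list holds hspb2 but not its partner cryabb, which was called lower. Outside pairs, 3 of 128 proteasome and chaperone genes were lower. In the histone list, hist2h2l and HIST2H2AB (1 of many) form a core histone pair that was named after its values were seen. The authors' deposited table gives this pair -0.54 and -0.52 (SE 0.21), with adjusted p of 0.186 and 0.207, and histone genes are near-identical copies whose counts are uncertain.

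The lists with few or no divergent members held calls elsewhere, beside 1.61% of all genes higher and 1.54% lower. Of the 45 sarcomere and calcium handling genes, all outside pairs, 20 were lower and 1 higher, and of 23 cardiac transcription factors outside pairs 7 were lower. Of 25 leukocyte markers outside pairs 10 were higher. In the divergent collagen pair neither gene was called, and of the 79 other collagen and matrix genes 4 were higher. Skeletal muscle and neuronal markers had median H3K4me3 means of 36.9 and 42.7 and no member in a pair, and all 6 lay below the lowest mean with an adjusted p (51.8), so none of them could be called.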

How the data were processed

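Per the labels, chromatin of enriched cardiomyocytes from 12 libraries (3 per mark and condition) was sequenced, with 1 mixed input DNA sample. Tools listed in the submitters' processing notes, with no role for any, are DESeq2, MACS2, bedtools 2.26.0, Picard 2.8.1, Bowtie2 2.3.2, BWA and SAMtools. The notes list several genome builds, and none is tied to the windows. The deposited signal is the authors' mean normalised count per window, per the file headers. The authors also computed, per the file headers, a log2 fold change (resected against uninjured) with its SE. The deposited score is the authors' Wald statistic, and it equals the log2 fold change over its SE within 0.0106. The p-value and adjusted p-value were deposited by the authors, and the p-value matches a two-sided normal p within 0.00205. The depth per library, the size factors and the placing of reads with several matches are not given in the sources used here, so the mean count per window and its SE are the measure of precision. H3K4me3 SEs do not exceed 0.301 in any window and H3K27me3 SEs reach 3.05, so sizes of change were not compared between the marks.

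From these, pairs were built with Python 3.11.15, pandas 2.3.3, NumPy 2.4.6 and SciPy 1.17.1, and figures with matplotlib 3.10.9. The pair search was checked on simulated data. The closest window pair stood for a gene pair. A window counted as overlapped when it shared at least 1 base with a window of another gene, and 39 windows clipped at a sequence start were in no pair. For lists, a gene stood at its pair window. 22 mitochondrial windows were left out, and 6 divergent windows had no H3K27me3 p. The planned count test gave way to the authors' comparison, because the tables hold no value per library. Symbols are those of the tables. Of 1805 divergent genes, 1621 matched the RefSeq table of assembly GRCz12tu by symbol or synonym.

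Members, lists, tests and the rule for naming genes were chosen with earlier results of these data known. Named are all called pairs, the 5 pairs highest in each mark, those with the largest ratio or difference between partners, the 5 with the smallest H3K27me3 p per direction, listed textbook pairs that met the rule, and called members of the 12 lists. Entries caught by a shared prefix alone were removed from the lists by name. Alternatives were other distance limits, the closest pair per gene pair, a minimum mean of 10, another threshold, adjustment over every window and another comparison class. The levels in bins and the minimum H3K4me3 of 100 were added after the data were seen.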

Additional observations from a re-analysis of the deposited data

How the results depend on the processing

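The number of divergent windows with higher H3K4me3 (29) was 17 with starts at most 500 apart, 11 at most 200, 19 with the closest window pair per gene pair and 51 at an adjusted p under 0.1. The number lower (3) was 0 at most 200, 6 at most 2000, 8 at an adjusted p under 0.1 and 0 after Benjamini-Hochberg adjustment over every window. Gene pairs with both windows called (10) were 5 at most 200, 17 at an adjusted p under 0.1 and 6 after adjustment over every window. The limits and the threshold change how many windows or tests enter, which is how these counts move. The median H3K4me3 of comparison windows (57.5) was 70.0 with all other windows as comparison and 246 in windows with a mean H3K4me3 of at least 100, a choice made after the data were seen. The other 61 recomputed values moved by less than the median SE of divergent windows (medians) or by at most 1.5 times (counts). That SE exceeds the medians of change and of partner differences themselves, so this limit could not show them to be stable. The median partner difference in H3K4me3 log2 fold change (0.010) was 0.0040 with starts at most 200 apart and 0.019 at most 2000. In log2 level the median partner difference (0.0060) was 0.0024 and 0.014. Of 24 values of named genes, 9 lost their call after adjustment over every window and 15 kept their side of the threshold. No H3K27me3 window was called under any alternative.

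No paired analysis was possible because the tables hold the authors' comparison and no value per library. For the same reason leaving out a replicate was not run and no single library was checked. Partner windows are not independent. No H3K4me3 window with a mean below 51.8 had an adjusted p, so windows below that level could not be called for this mark.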

Other observations

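Divergent genes were spread over all chromosomes. Their share of a chromosome's genes ran from 5.00% on chromosome 22 to 10.7% on chromosome 13, where 3 of the pairs with higher H3K4me3 lie, and was 1.76% on unplaced scaffolds. On chromosome 4 it was 6.77%.

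In the RefSeq annotation of assembly GRCz12tu, 1621 of 1805 divergent genes had a match (89.8%), against 14246 of 18003 genes with unshared windows alone (79.1%). Of the matched genes, 99.3% and 98.8% were protein coding. Both genes of 754 pairs were matched, 747 of these pairs lay on the same chromosome in that assembly, and in 660 (87.5%) the genes were next to each other.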
